A study of Mus musculus with 132 samples.

Results

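The genes described here are the Hox clusters, the Cdx genes and the Meis and Pbx genes that encode cofactors of Hox proteins, together 46 of the 25146 genes in a count table of mouse poly(A)-minus RNA-seq. They were taken by gene symbol, from a list of gene families and not by a threshold on a measured value. The 46 members are 10 genes of the HoxA cluster, 10 of HoxB, 9 of HoxC and 9 of HoxD, with Cdx1, Cdx2 and Cdx4, Meis1, Meis2 and Meis3, and Pbx2 and Pbx3.

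Hox genes encode homeodomain transcription factors that give cells a position along the head-to-tail axis. In mammals they lie in 4 clusters, and genes at the 3′ end of a cluster (low paralog numbers) are switched on earlier and further forward in the embryo than genes at the 5′ end. Cdx proteins are homeodomain factors of the posterior embryo that activate Hox genes and are needed for embryonic blood formation. Meis and Pbx proteins are homeodomain factors of the TALE class that bind DNA together with Hox proteins, and Meis1 is also known for its role in blood stem and progenitor cells.

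The study differentiated E14-TG2a mouse embryonic stem cells (mESCs) into Flk1+ mesoderm and then CD41+ hematopoietic progenitor cells (HPCs), and deleted CTCF sites close to the P1 or the P2 promoter of Runx1, a gene needed for blood formation. The 23 libraries fall into 7 groups: wild-type (WT) mESCs at day 0 (n = 2), mesoderm at day 4 of the WT, P1-CTCF-KO and P2-CTCF-KO genotypes (n = 3 each), and HPCs at day 7 of WT (n = 4), P1-CTCF-KO (n = 3) and P2-CTCF-KO cells (n = 5). Cultures received BMP4 from the start and bFGF with Activin A from day 3, and sorted Flk1+ cells were then grown with SCF and VEGF. Each genotype at days 4 and 7 was represented by 3 clones, and a few clones gave several HPC libraries.

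Several features limit these groups. The mESC libraries are labelled technical replicates, so p-values against mESCs measure a spread that may be technical. The methods name depletion of ribosomal RNA for mESCs and not for the differentiated cells, while the labels list the kit for the series as a whole, so any comparison with mESCs is also one between library preparations, and the 2 cannot be told apart. The cells were sorted in bulk, and fewer expressing cells and less RNA per cell cannot be told apart either. The deletions lie outside the counted members, and no count of a member checks them.

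The libraries held 20532578 to 24283287 counts at day 0, 18233679 to 24406998 at day 4 and 7805102 to 13513677 at day 7. Ribosomal RNA genes and genes with more than 1 listed locus took 68.1% to 76.3% of them in mESCs and 87.8% to 91.0% in the differentiated cells, which left 878966 to 2288976 counts for all other genes in each library of mesoderm or HPCs. Kdr, which encodes Flk1, was read at 16.9 to 39.1 CPM in the mesoderm libraries, and Itga2b, which encodes CD41, at 10 to 79.3 CPM in the HPC libraries. CPM is here the count of a gene for every 1000000 of the library size, after scaling by the TMM method over all 23 libraries. The scaled sizes were 183175642 and 101943063 for the mESC libraries and 8233775 to 17235537 for WT mesoderm, although their total counts were alike. Levels against mESCs therefore depend on this scaling. Counts were made over whole genes, introns included, so a long gene gathers more reads than a short one at the same level.

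Each cluster spans a short stretch of the mm9 assembly, which the files use. HoxA lies at chr6:52112415-52210874 on the minus strand, HoxB at chr11:96055629-96229567, HoxC at chr15:102751561-102867283 and HoxD at chr2:74506281-74603199, the last 3 on the plus strand. Hoxa4, Hoxa5 and Hoxa6 lie inside the span listed for Hoxa3, and Hoxd4 lies inside the span listed for Hoxd3, so reads in the shared bases cannot be assigned to either gene alone. Antisense transcripts overlap several members, among them Hoxb3os over Hoxb2 and Hoxb3 and Hoxd3os1 over Hoxd3, and the strand setting of the counting is not stated. Sums over clusters below leave out the 4 nested genes.

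Open chromatin in the clusters was listed for mesoderm and not for HPCs. The ATAC-seq peaks, which mark accessible DNA, had been called by the authors from merged libraries of WT cells, and by the methods these cells carried reporter transgenes that the sample labels do not name. Over the 485.0 kb of the 4 clusters lay 26 mesoderm peaks, 5 in HoxA, 7 in HoxB, 6 in HoxC and 8 in HoxD. That is 5.36 peaks per 100 kb, against 2.89 over the genome. The HPC list held 0 peaks in these 485.0 kb, against 1.09 per 100 kb over the genome, and its 29037 peaks are fewer than the 76766 of mesoderm. The lists give positions without heights, and merged libraries leave no replicate to test.

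**Figure D1:**
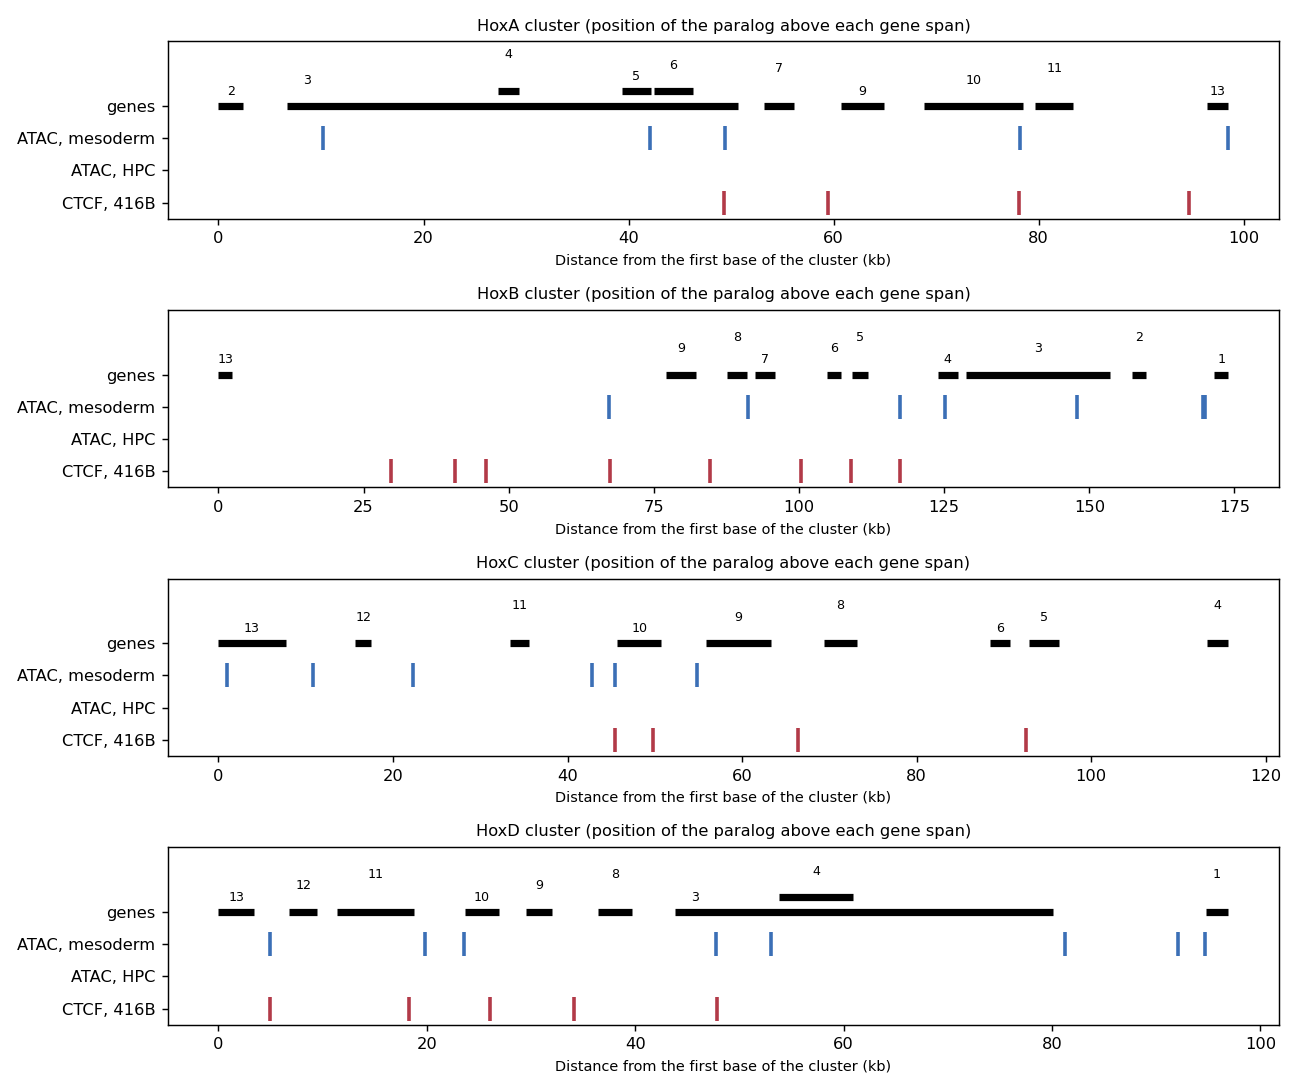
Genes and peaks along the 4 Hox clusters. Each panel is 1 cluster, the x axis is the distance in kb from its first base, black bars are gene spans with the paralog number above, and vertical marks are the centres of listed peaks. Mesoderm ATAC-seq peaks number 5, 7, 6 and 8 in HoxA, HoxB, HoxC and HoxD, HPC ATAC-seq peaks number 0 in each, and CTCF peaks of 416B cells number 4, 8, 4 and 5.

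At promoters, taken as 500 bp on either side of the listed gene start, 12 of the 46 members held a mesoderm ATAC-seq peak, whereas 51.9% of all genes did. The 12 were Hoxa5, Hoxa10, Hoxa13, Hoxc10, Hoxc13, Hoxd1 and Hoxd10 with Cdx2, Meis1, Meis2, Meis3 and Pbx2. In HPCs the members with a promoter peak were Meis1 and Meis2, 2 of 46, against 34.7% of all genes. No HoxB promoter held a peak in either list.

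CTCF, the architectural protein whose sites were deleted at Runx1, was mapped in 416B cells, a mouse myeloid progenitor line. Its peaks numbered 21 in the clusters, 4.33 per 100 kb against 1.68 over the genome, and 5 of 46 promoters held a CTCF peak (Hoxa10, Hoxb5, Hoxc5, Hoxc10 and Meis3), against 9.11% of all genes. Of the 26 mesoderm ATAC-seq peaks, 7 overlapped a CTCF peak, and 18.4% of all mesoderm peaks did. The core letters of the CTCF motif, taken as CC, any 3 bases, AG, any 2 bases and GGC on either strand, were found in 9 of the 21 cluster peaks and in 52.7% of all 44513 CTCF peaks. The letters ran on the strand of the Hox genes in 6 peaks and on the opposite strand in 3, and none of the 4 HoxC peaks held them.

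These CTCF sites are examples of those that lie between or inside clustered Hox genes and outside annotated UTRs. Other such sites, between Hoxb13 and Hoxb9, are not shown. Each site shown is printed from the mm9 genome on the strand of the motif, whose letters are in capitals. The first lies at chr11:96140232-96140303 on the plus strand between Hoxb9 and Hoxb8. The next lies at chr2:74511205-74511276 on the minus strand between Hoxd13 and Hoxd12, where a mesoderm ATAC-seq peak overlaps the CTCF peak. The last lies at chr2:74553948-74554019 on the plus strand within Hoxd3 and within an exon of the noncoding gene 1700109F18Rik, also under a mesoderm ATAC-seq peak.
HoxB, Hoxb9 to Hoxb8: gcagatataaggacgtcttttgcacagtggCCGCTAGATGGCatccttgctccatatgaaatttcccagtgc
HoxD, Hoxd13 to Hoxd12: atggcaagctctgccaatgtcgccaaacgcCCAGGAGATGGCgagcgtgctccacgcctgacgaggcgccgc
HoxD, within Hoxd3: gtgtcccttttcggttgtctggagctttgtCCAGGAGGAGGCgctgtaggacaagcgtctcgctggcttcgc

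Short motifs of the factors themselves were searched on both strands in the central 200 bases of each peak. Letters of a CDX site, TTTATNG, occurred in 5 of the 26 mesoderm peaks of the clusters, against 6.16% of all mesoderm peaks. Letters of a PBX-HOX site, TGATNNAT, occurred in 1 of 26, against 4.8% of all, and those of a MEIS site, TGACAG, in 0 of 26, against 17.6% of all. In the peaks around the Cdx, Meis and Pbx genes, 41 in mesoderm, the CDX letters occurred in 4, the PBX-HOX letters in 4 and the MEIS letters in 9. A match of these letters is a description of the sequence and not a bound site.

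Within the clusters 2 peaks held several CDX matches and are printed for that reason, on the plus strand of mm9 with the matches in capitals. The window at chr2:74559248-74559447 lies upstream of Hoxd4 and in an intron of Hoxd3, which are described below. The window at chr11:96180632-96180831 lies in the intron of Hoxb4.
Peak upstream of Hoxd4: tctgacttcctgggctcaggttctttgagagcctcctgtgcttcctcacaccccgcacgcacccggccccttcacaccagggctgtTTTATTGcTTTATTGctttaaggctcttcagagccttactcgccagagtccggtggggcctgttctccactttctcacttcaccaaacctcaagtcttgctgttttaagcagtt
Peak in Hoxb4: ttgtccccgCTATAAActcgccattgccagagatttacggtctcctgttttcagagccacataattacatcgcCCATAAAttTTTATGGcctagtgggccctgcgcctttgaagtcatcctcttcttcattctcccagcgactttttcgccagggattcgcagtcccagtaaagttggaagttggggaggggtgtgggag

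Hox reads were few at every stage. Of the 38 Hox members, 11 and 15 had at least 1 count in the mESC libraries, 27, 7 and 23 in WT mesoderm, 30, 23 and 31 in P1-CTCF-KO mesoderm, and 8, 0 and 8 in P2-CTCF-KO mesoderm. In HPCs the number ran from 0 to 10 of 38. Each of the 46 members had a count in some library, and 14 of them stayed at or under 3 counts in all 23. Such members were not detectable at this depth rather than absent.

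**Figure D2:**
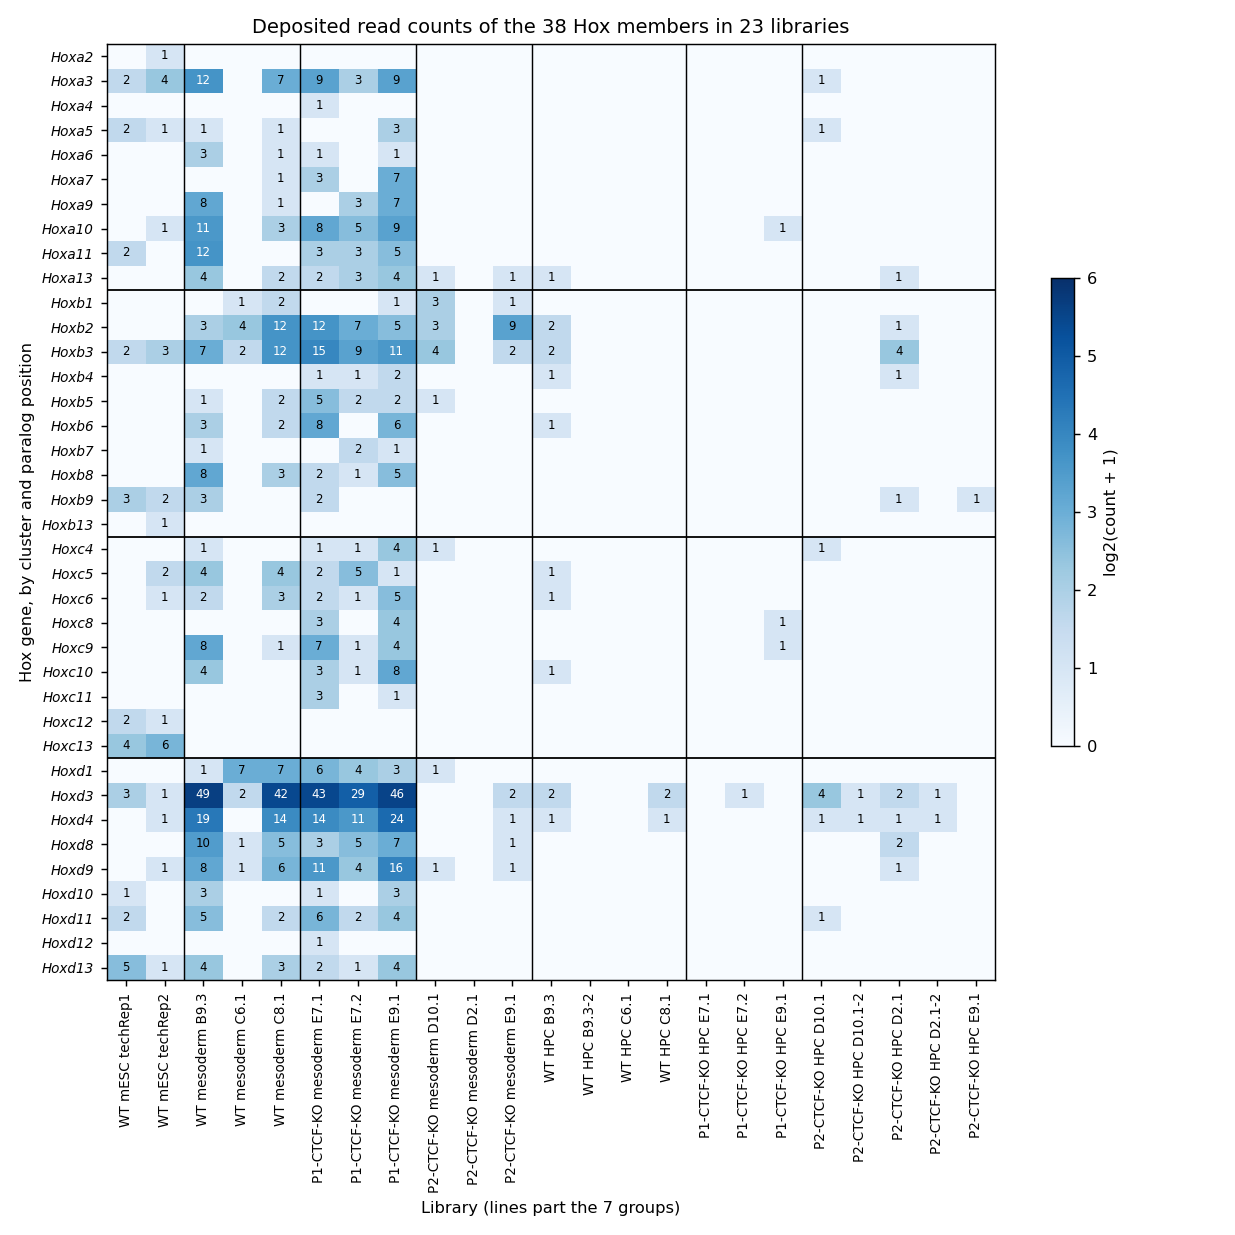
Deposited read counts of the 38 Hox members (rows, by cluster and paralog number) in the 23 libraries (columns, by group), with log2(count + 1) as colour and the count printed in each cell above 0. Counts gather in the WT and P1-CTCF-KO mesoderm columns, with Hoxd3 the deepest row at 29 to 49 counts in 5 of those 6 libraries and 2 in WT C6.1, and the HPC columns are nearly empty.

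Summed over the 34 members that are not nested, the mESC libraries held 26 and 25 Hox counts, and WT mesoderm held 172, 18 and 120 in B9.3, C6.1 and C8.1. P1-CTCF-KO mesoderm held 164, 93 and 184 in E7.1, E7.2 and E9.1, and P2-CTCF-KO mesoderm held 15, 0 and 17 in D10.1, D2.1 and E9.1. On the CPM scale the sum was 0.194 ± 0.0728 (SD, n = 2) in mESCs, 6.46 ± 3.95 (SD, n = 3) in WT mesoderm, 8.52 ± 4.25 (SD, n = 3) in P1-CTCF-KO mesoderm and 0.763 ± 0.671 (SD, n = 3) in P2-CTCF-KO mesoderm. Each P2-CTCF-KO mesoderm library lay below the lowest WT library, and WT C6.1 was the lowest WT library, at 2.19 CPM against 9.98 in B9.3 and 7.2 in C8.1. C6.1 held 1955010 counts to genes outside the ribosomal and multi-locus entries, against 1984166 and 2134615 in the others, and its library size after TMM scaling was 8233775, against 17235537 in B9.3 and 16658366 in C8.1. P2-CTCF-KO E9.1, with 17 Hox counts against 18 in C6.1, held 1897917 such counts and had a scaled size of 13508489. The order of C6.1 and E9.1 therefore rests on the scaling of library sizes. In HPCs the mean sum lay between 0.164 and 0.379 CPM in the 3 genotypes.

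Of the clusters, HoxD gave the most reads in WT and P1-CTCF-KO mesoderm and HoxB in P2-CTCF-KO mesoderm. HoxD gave 80, 11 and 65 counts in WT, 73, 45 and 83 in P1-CTCF-KO and 2, 0 and 4 in P2-CTCF-KO cells. HoxB gave 26, 7 and 33 counts in WT, 45, 22 and 33 in P1-CTCF-KO and 11, 0 and 12 in P2-CTCF-KO mesoderm. HoxA gave 47, 0 and 14 counts in WT, 25, 17 and 41 in P1-CTCF-KO and 1, 0 and 1 in P2-CTCF-KO mesoderm. HoxC gave 19, 0 and 8, then 21, 9 and 27, then 1, 0 and 0 in the same order. In WT C6.1 and in P2-CTCF-KO mesoderm, HoxA and HoxC together thus held at most 2 counts in a library, while HoxB still held 7 in C6.1 and 11 and 12 in 2 of the 3 P2-CTCF-KO libraries.

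**Figure D3:**
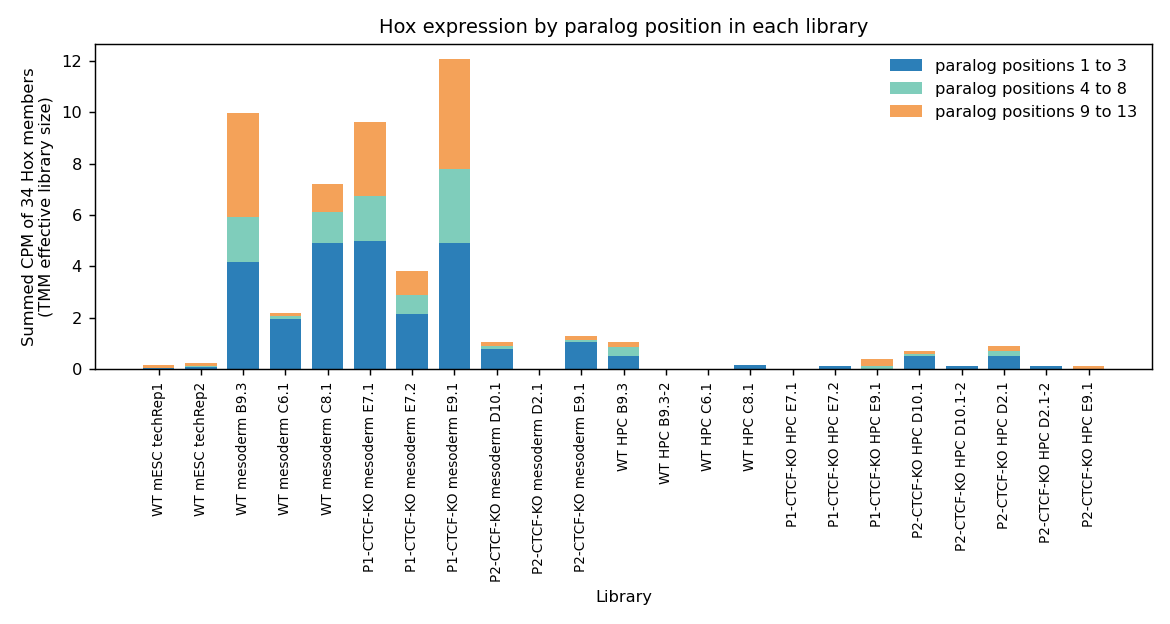
Summed CPM of the 34 Hox members that are not nested, in each of the 23 libraries, stacked by paralog position (1 to 3, 4 to 8 and 9 to 13). The WT and P1-CTCF-KO mesoderm bars are the tallest apart from WT C6.1, and positions 1 to 3 make up 68.3% or more of the counts in WT C6.1, WT C8.1 and the P2-CTCF-KO mesoderm libraries D10.1 and E9.1.

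By paralog position, the 3′ genes of positions 1 to 3 held 72 of 172 Hox counts in WT B9.3, which is 41.9% (95% Wilson interval 34.7 to 49.3). They held 82 of 120 in C8.1, or 68.3% (59.6 to 76.0), and 16 of 18 in C6.1, or 88.9% (67.2 to 96.9). The WT libraries therefore differed among themselves by more than counting error, since the interval of B9.3 overlaps neither of the others. In P1-CTCF-KO mesoderm the share ran from 40.8% (33.9 to 48) in E9.1 to 55.9% (45.8 to 65.6) in E7.2, and in P2-CTCF-KO mesoderm it was 73.3% (48 to 89.1) in D10.1 and 82.4% (59.0 to 93.8) in E9.1. These intervals cover counting error only. Hoxd3, a long gene, held most of the 3′ counts in B9.3 and C8.1 (49 and 42), and in C6.1 they were mostly Hoxd1 (7) and Hoxb2 (4).

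Per kb of gene span, the WT mesoderm and HPC libraries gave the highest level in HoxA to Hoxa13, in HoxB to Hoxb2, in HoxC to Hoxc6 and in HoxD to Hoxd1. Hoxc6 and Hoxc5 were nearly tied, at 0.0235 and 0.0233 CPM per kb. Hoxa13 had 4, 0 and 2 counts in WT mesoderm, 2, 3 and 4 in P1-CTCF-KO and 1, 0 and 1 in P2-CTCF-KO mesoderm. Hoxc6 had 2, 0 and 3, then 2, 1 and 5, then 0 in all 3. Both lie too close to the floor of 3 counts for an order between genotypes to be read. Hoxb2 had 3, 4 and 12 counts in WT mesoderm, 12, 7 and 5 in P1-CTCF-KO and 3, 0 and 9 in P2-CTCF-KO mesoderm, and Hoxd1 had 1, 7 and 7, then 6, 4 and 3, then 1, 0 and 0. On the CPM scale Hoxd1 stood at 0.058, 0.85 and 0.42 in WT B9.3, C6.1 and C8.1, highest in C6.1, and Hoxb2 at 0.174, 0.486 and 0.72.

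From WT mESCs to WT mesoderm, 7 of the 46 members passed the filter on low counts and were tested, and all 7 rose (edgeR quasi-likelihood test, adjusted p under 0.05 and a change of over 1 on the log2 scale). Of all genes tested, 10.7% rose by this rule. Hoxd3, Hoxd4 and Cdx2 passed the filter through mesoderm, where they are high, and were not tested without B9.3 or C8.1, so their direction follows in part from the filter. Meis1, Meis2, Pbx2 and Pbx3 had 60 or more counts in each mESC library.

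Hoxd3, at chr2:74550049-74586328, had 3 and 1 counts in mESCs and 49, 2 and 42 in WT mesoderm. Hoxd4, a 3′ HoxD gene nested in it at chr2:74560034-74567216, had 0 and 1 in mESCs and 19, 0 and 14 in mesoderm. B9.3 and C8.1 carried these counts, and C6.1 was at or near 0 for both genes. The log2 difference was 6.87 (SE 0.926, adjusted p = 0.00045) for Hoxd3 and 6.79 (SE 1.04, adjusted p = 0.000948) for Hoxd4, where the single mESC count gives a ratio of 223 with a counting interval of 37.4 to 9090.

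Cdx2, the regulator of posterior Hox expression at chr5:148112475-148118825, had 11 and 4 counts in mESCs, 15, 2 and 29 in WT mesoderm, 47, 23 and 48 in P1-CTCF-KO and 3, 2 and 7 in P2-CTCF-KO mesoderm. On the CPM scale these were 0.0496 ± 0.0147 (SD, n = 2), 0.951 ± 0.752, 2.28 ± 1.17 and 0.304 ± 0.186 (SD, n = 3 each). Its level in WT mesoderm exceeded that of mESCs by 4.24 on the log2 scale (SE 0.706, adjusted p = 0.00323). In HPCs it was at 0 in 11 of 12 libraries, with 2 counts in P2-CTCF-KO D2.1. Cdx1 had 2 and 5 counts in mESCs and at most 1 in any other library, and Cdx4 had at most 3 in any library.

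A mesoderm ATAC-seq peak covered the start of Cdx2, and its 5′ flank is printed because this is the Cdx gene with a measured change. The window at chr5:148118847-148119046 lies upstream of the gene on the minus strand, with the bases inside the mesoderm peak in capitals, and held no match of the 3 motifs.
Cdx2 upstream: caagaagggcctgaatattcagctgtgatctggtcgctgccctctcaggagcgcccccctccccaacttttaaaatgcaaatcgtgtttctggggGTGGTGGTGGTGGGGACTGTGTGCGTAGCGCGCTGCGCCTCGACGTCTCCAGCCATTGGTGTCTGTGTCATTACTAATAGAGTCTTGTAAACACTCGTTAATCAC

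Among the TALE genes, Meis1 had 158 and 76 counts in mESCs and 201, 7 and 24 in WT mesoderm, which is 0.863 and 0.746 CPM against 11.7, 0.85 and 1.44 CPM. The log2 difference was 2.57 (SE 0.886, adjusted p = 0.0497), and 0.59 with no call without B9.3. That call was also lost without either mESC library or without WT HPC B9.3-2, C6.1 or C8.1, which enter the same fit, at 2.46 to 2.68. Meis2, a close relative of Meis1, had 140 and 75 counts in mESCs and 162, 20 and 58 in WT mesoderm, a difference of 2.79 (SE 0.84, adjusted p = 0.0295), and 2.02 with no call without B9.3. Pbx3 had 806 and 285 counts in mESCs and 408, 169 and 222 in WT mesoderm, 3.6 against 19.2 CPM (2.40, SE 0.368, adjusted p = 0.00094). Pbx2 had 146 and 60 counts and 35, 12 and 27, 0.693 against 1.7 CPM (1.30, SE 0.32, adjusted p = 0.0119). Each mesoderm count of Pbx2 lay below both mESC counts, so its rise rests on the scaling of library sizes. DESeq2 called 6 of these 7, all but Meis2.

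The count of 7 rested on few libraries. Without the mESC library techRep1 it was 2, without techRep2 it was 3, without mesoderm B9.3 it was 2 of 4 tested, and without C8.1 it was 4 of 4 tested. Without techRep1 the calls of Hoxd4 (5.54), Cdx2 (4.49), Meis1 (2.68), Meis2 (2.81) and Pbx2 (1.54) were lost, and without techRep2 those of Cdx2 (3.97), Meis1 (2.46), Meis2 (2.75) and Pbx2 (1.10). Where only 1 mESC library was left, it was assumed to vary like the other groups.

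Between single libraries, WT mesoderm lay above both mESC libraries, without overlap, for 11 of the 41 members with counts, against 17.4% of all genes with counts. These 11 were Hoxb2, Hoxb3, Hoxd1, Hoxd3, Hoxd8, Hoxd9, Cdx2, Meis2, Meis3, Pbx2 and Pbx3. Of these, 3 had 0 counts in mESCs, with a level at least 20.1-fold higher in mesoderm for Hoxb2, at least 19.3-fold for Hoxd1 and at least 14.6-fold for Hoxd8, by a floor of 3 counts in each library. Meis3 had 10 and 13 counts in mESCs and 6, 3 and 4 in WT mesoderm. Its place among the 11, like that of Pbx2, therefore rests on the scaling of library sizes. Hoxc13 had 4 and 6 counts in mESCs and Hoxc12 had 2 and 1, and neither had a count in any other library. Their mESC levels of 0.00981 to 0.0589 CPM lie under the floor of 3 counts in the WT mesoderm libraries, 0.174 to 0.364 CPM, so a lower level in mesoderm was not detectable at this depth. The other HoxC counts in mESCs were 2 for Hoxc5 and 1 for Hoxc6, both in techRep2. In WT mesoderm the HoxC genes with a count were Hoxc4, Hoxc5, Hoxc6, Hoxc9 and Hoxc10.

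From WT mesoderm to WT HPCs, 7 of the 46 members were tested. Meis1 rose, against 10.8% of all genes, and Hoxd3, Hoxd4, Cdx2 and Meis2 fell, against 12.5% of all genes, whereas Pbx2 and Pbx3 passed no threshold. DESeq2 also called 5. Hoxd3, Hoxd4 and Cdx2 were tested because of their mesoderm counts here too.

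Hoxd3 had 49, 2 and 42 counts in WT mesoderm and 2, 0, 0 and 2 in the 4 WT HPC libraries, and Hoxd4 had 19, 0 and 14 against 1, 0, 0 and 1. The level of Hoxd3 fell by 4.34 on the log2 scale (SE 0.85, adjusted p = 0.00286) and that of Hoxd4 by 3.86 (SE 1.07, adjusted p = 0.0191), a call lost without HPC C6.1 (-3.49). For Hoxd4 the 2 HPC counts give a ratio of 16.3 with a counting interval of 4.17 to 140. Cdx2, with 0 counts in every WT HPC library, stood at least 3.2-fold below its mesoderm level (adjusted p = 0.00428). Its 2, 15 and 29 mesoderm counts did not overlap with HPCs.

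Meis1, at chr11:18780430-18918972, had the highest CPM of the members in WT HPCs. It had 679, 167, 287 and 784 counts in WT HPC B9.3, B9.3-2, C6.1 and C8.1, which is 58.3, 21.4, 28.3 and 65.3 CPM and 43.3 ± 21.7 (SD, n = 4). WT mesoderm stood at 4.65 ± 6.08 CPM (SD, n = 3), and no WT HPC library fell to the 11.7 CPM of mesoderm B9.3. The difference was 3.17 on the log2 scale (SE 0.745, adjusted p = 0.0083), and 5.17 without that library. Mesoderm B9.3 also held the highest sum of 8 endothelial markers, 85.6 CPM against 5.22 and 13.9, and the part of this in the Meis1 level was not tested.

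Across the gene, 9 mesoderm and 4 HPC ATAC-seq peaks lay within 5 kb of Meis1, and each of the 4 HPC peaks overlapped a mesoderm peak. A peak at the gene start was present in both stages, and the flank is printed because Meis1 is the member that rose. The window at chr11:18918973-18919172 lies upstream of the gene on the minus strand, with the bases inside the mesoderm peak in capitals, and held no match of the 3 motifs.
Meis1 upstream: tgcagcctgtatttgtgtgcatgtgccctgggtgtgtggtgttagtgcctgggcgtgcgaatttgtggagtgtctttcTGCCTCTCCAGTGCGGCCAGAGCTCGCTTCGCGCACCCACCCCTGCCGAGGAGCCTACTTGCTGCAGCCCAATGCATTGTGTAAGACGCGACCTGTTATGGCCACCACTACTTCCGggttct

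Meis2 moved the other way, from 162, 20 and 58 counts in WT mesoderm to 31, 0, 4 and 3 in WT HPCs. The level fell by 2.57 on the log2 scale (SE 0.758, adjusted p = 0.0256), a call lost without mesoderm B9.3 (-1.77), HPC C6.1 (-2.34) or HPC C8.1 (-2.23). Within 5 kb of its span Meis2 had 16 mesoderm and 5 HPC ATAC-seq peaks, and 3 of the 5 overlapped a mesoderm peak. Meis3 had 6, 3 and 4 counts in mesoderm and 2, 0, 0 and 0 in HPCs, too few to be tested. Pbx2 stood at 1.7 ± 0.295 CPM (SD, n = 3) in mesoderm and 1.98, 1.15, 1.38 and 1.75 CPM in the HPC libraries, a log2 difference of -0.12 (adjusted p = 0.808). Pbx3 differed by -0.62 (adjusted p = 0.133).

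Libraries left out changed this count too. It was 1 of 4 tested without mesoderm B9.3, 2 of 4 tested without mesoderm C8.1 and 3 without HPC C6.1. With the clone as a replicate block, which pairs mesoderm and HPC libraries of the same clone, 4 members were tested and 2 called, Meis1 (3.38) and Meis2 (-3.06).

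Without overlap between libraries, 8 of the 37 members with counts lay lower in WT HPCs than in WT mesoderm, against 13.8% of all genes with counts. These were Hoxb2, Hoxb3, Hoxd1, Hoxd3, Hoxd8, Hoxd9, Cdx2 and Meis3, and the ratio was 9.38 for Hoxb2 (counting interval 2.26 to 83.1) and 10.4 for Hoxb3 (2.53 to 91.2). For Hoxd1, Hoxd8 and Hoxd9, at 0 in HPCs, it was at least 1.49, 1.12 and 1.06. Mesoderm C6.1 and HPC B9.3 held 2 counts each of Hoxd3 and of Hoxb3, so their order there rests on the scaling of library sizes. C6.1 held 1 count of Hoxd8 and 1 of Hoxd9. Meis1 alone lay higher, 1 of 37 against 13.3% of all genes with counts. These 8 lower genes had also been among the 11 higher members above, a count in which the shared mesoderm libraries enter on both sides.

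From mESCs to HPCs directly, Meis1 (5.74, SE 1.01, adjusted p = 0.000787), Pbx2 (1.18, SE 0.311, adjusted p = 0.00899) and Pbx3 (1.79, SE 0.348, adjusted p = 0.00153) rose, 3 of the 7 tested, against 17.0% of all genes tested. DESeq2 also called 3. Pbx2 stood at 0.97 and lost its call without the mESC library techRep2. Pbx2 and Pbx3 had fewer counts in each WT HPC library than in either mESC library, so their rises rest on the scaling of library sizes. The Hox and Cdx members tested were not called in this comparison.

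**Figure D4:**
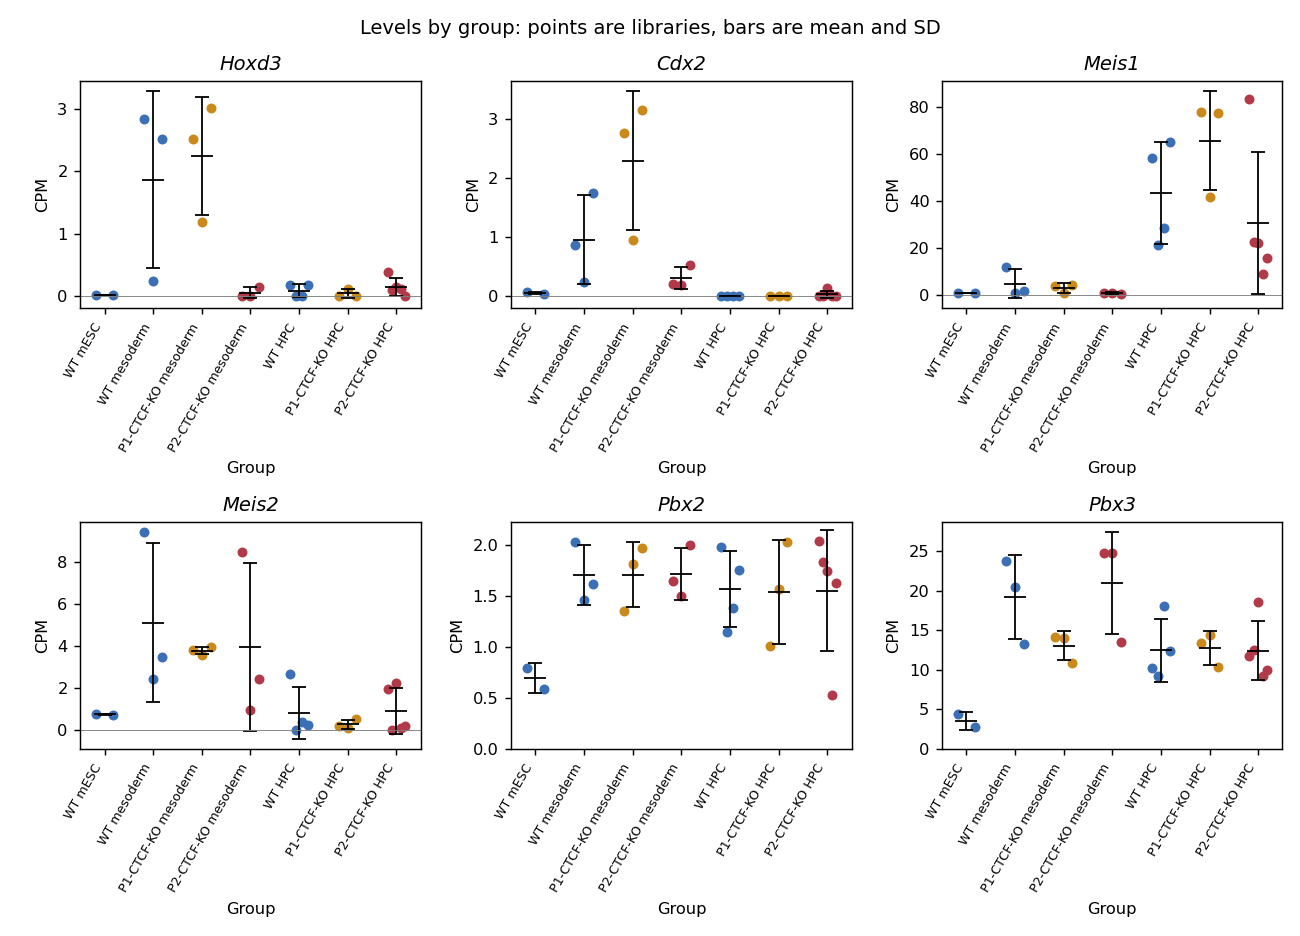
CPM of Hoxd3, Cdx2, Meis1, Meis2, Pbx2 and Pbx3 by group, with a point for each library and lines for the mean and SD. Hoxd3 and Cdx2 have their highest points in WT and P1-CTCF-KO mesoderm, with WT C6.1 low in both, Meis1 is high in HPCs at 8.98 to 83.7 CPM, and Pbx2 and Pbx3 are lower in mESCs than in the mesoderm libraries.

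In mesoderm, the comparison of P2-CTCF-KO with WT cells asks whether loss of the P2-proximal CTCF site of Runx1 goes with other expression at this stage. Of the 46 members 8 were tested, and edgeR called 0 of them, against 0.0342% of all genes. At an unadjusted p under 0.05 there were 4, each lower in P2-CTCF-KO cells, and 16% of all genes passed that limit. DESeq2 called 1 of the 8, Hoxd3, against 1.87% of all genes tested. Hoxd3 and Hoxd4 had at most 2 counts and Cdx2 at most 7 in a P2-CTCF-KO library. These genes passed the filter through the WT and P1-CTCF-KO libraries, where they are high, so their direction follows in part from the filter.

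Hoxd3 had 49, 2 and 42 counts in WT mesoderm and 0, 0 and 2 in P2-CTCF-KO mesoderm D10.1, D2.1 and E9.1. The groups do not overlap in CPM, 0.243 to 2.84 against 0 to 0.148, but the lowest WT and the highest P2-CTCF-KO library had 2 counts each. The log2 difference was -5.04 (SE 1.05) with an unadjusted p of 0.000573 and an adjusted p of 0.121 by edgeR, and -5.20 with an adjusted p of 0.00493 by DESeq2. As a ratio of levels it was 42.7 with a counting interval of 11.5 to 358.

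Hoxd4 had 19, 0 and 14 counts in WT and 0, 0 and 1 in P2-CTCF-KO mesoderm, and the groups overlap at 0 (-4.41, adjusted p = 0.16). Cdx2 differed by -1.68 (adjusted p = 0.298), and its 3, 2 and 7 counts in P2-CTCF-KO cells overlapped the WT range of 2 to 29. Meis1 had 13, 9 and 5 counts in P2-CTCF-KO mesoderm, a difference of -2.76 (adjusted p = 0.236) with 201 counts in WT B9.3 alone. Meis2 (123, 10 and 33 counts), Pbx2 (24, 16 and 27) and Pbx3 (358, 263 and 182) passed no threshold.

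Leaving out WT C6.1 changed this count. Without it edgeR called 2 members of 10 tested, Hoxd3 (-5.47) and Hoxd4 (-4.84), both lower in P2-CTCF-KO mesoderm. The share of all genes called in this refit is not given here, so the count is not read as a result about the members. Hoxd4 lies inside the span of Hoxd3, and both passed the filter through the WT and P1-CTCF-KO libraries, where they are high.

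Libraries of P2-CTCF-KO mesoderm lay below all WT libraries for 3 of the 36 members with counts, Hoxd3, Hoxd8 and Hoxd9, against 7.04% of all genes with counts. Hoxd8 had 10, 1 and 5 counts in WT and 0, 0 and 1 in P2-CTCF-KO cells, a ratio of 14.7 (counting interval 2.28 to 616). Hoxd9 had 8, 1 and 6 against 1, 0 and 1, a ratio of 6.89 (1.6 to 62.1). For both, the lowest WT library (C6.1, 0.121 CPM) and the highest P2-CTCF-KO library (E9.1, 0.074 CPM) held 1 count each, and 3 of 36 is near the share of all genes. Hoxb2 and Hoxb3 overlapped between the groups, with 3, 0 and 9 and 4, 0 and 2 counts in P2-CTCF-KO cells.

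Summed markers of other cell states differed as well. EdgeR called 0 of the single markers tested between P2-CTCF-KO and WT mesoderm, where it called 0.0342% of all genes. Those tested were 5 endothelial, 5 progenitor, 7 mesoderm and 2 pluripotency markers. The sum of 8 endothelial markers was 2.96, 1.41 and 1.85 CPM in P2-CTCF-KO mesoderm, against 5.22 to 85.6 CPM in WT and 7.74 to 51.2 in P1-CTCF-KO mesoderm. The sum of 9 markers of CD41+ progenitors was 4.13 to 10.7 CPM against 20.0 to 28.0 in WT. Markers of nascent and Flk1+ mesoderm (8 of 9 in the table) were at 74.0 to 111 CPM against 33.3 to 58.5 in WT, and the 8 pluripotency markers at 4.66 to 8.95 against 1.44 to 2.19. WT C6.1, with few Hox counts, had the lowest endothelial and the highest nascent mesoderm sum of the WT libraries. The part of these cell states in the Hox levels was not tested.

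In P1-CTCF-KO mesoderm the other Runx1 site is deleted. Against WT mesoderm, edgeR called 0 of 46 members with 8 tested, 0% of all genes, and 0 of the 8 had an unadjusted p under 0.05. DESeq2 called 0 as well. Hoxd3 had 43, 29 and 46 counts, a log2 difference of 0.15, and Cdx2 had 47, 23 and 48, a difference of 1.13 (adjusted p = 1), 2.28 against 0.951 CPM with overlapping libraries. Only Hoxb4 lay above all WT libraries, 1 of the 42 members with counts against 3.45% of all genes with counts. It had 1, 1 and 2 counts against 0, 0 and 0, all under the floor of 3 counts.

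P2-CTCF-KO mesoderm was also compared with P1-CTCF-KO mesoderm. EdgeR called 0 of 46 with 8 tested, 0% of all genes, while 5 of the 8 had an unadjusted p under 0.05, against 11.2% of all genes tested. DESeq2 called 3 of the 8, Hoxd3 (adjusted p = 0.00505), Hoxd4 (0.0464) and Cdx2 (0.0223), against 1.03% of all genes tested. By edgeR, Hoxd3 differed by -5.19 (adjusted p = 0.191), Hoxd4 by -4.75 (adjusted p = 0.236), Cdx2 by -2.81 (adjusted p = 0.236) and Pbx3 by 0.71 (adjusted p = 0.381). Hoxd3 and Hoxd4 had at most 2 counts and Cdx2 at most 7 in a P2-CTCF-KO library. They passed the filter through the P1-CTCF-KO and WT libraries, where they are high, so their direction follows in part from the filter.

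Between these 2 deletions, 20 of the 42 members with counts lay lower in every P2-CTCF-KO library than in any P1-CTCF-KO library. The share of all genes with counts was 7.41%. The 20 were 4 HoxA genes (Hoxa3, Hoxa10, Hoxa11 and Hoxa13), 4 HoxB genes (Hoxb3, Hoxb4, Hoxb5 and Hoxb8), 4 HoxC genes (Hoxc5, Hoxc6, Hoxc9 and Hoxc10), 7 HoxD genes (Hoxd1, Hoxd3, Hoxd4, Hoxd8, Hoxd9, Hoxd11 and Hoxd13) and Cdx2. Of these, Hoxa13, Hoxb4, Hoxb5, Hoxb8, Hoxc5, Hoxc6, Hoxc9, Hoxc10, Hoxd11 and Hoxd13 were under the floor of 3 counts in some P1-CTCF-KO library. For them an order between genotypes cannot be read. The ratio was 40.3 for Hoxd3 (counting interval 10.9 to 337), 33.5 for Hoxd4 (5.74 to 1350) and 10.6 for Hoxd9 (2.7 to 91.4). Cdx2 had 47, 23 and 48 counts in P1-CTCF-KO and 3, 2 and 7 in P2-CTCF-KO mesoderm. The members of a cluster lie side by side in the same libraries, so these 20 are not independent counts, and P2-CTCF-KO D2.1 with 0 Hox counts enters each. None of the Meis and Pbx members was among them.

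**Figure D5:**
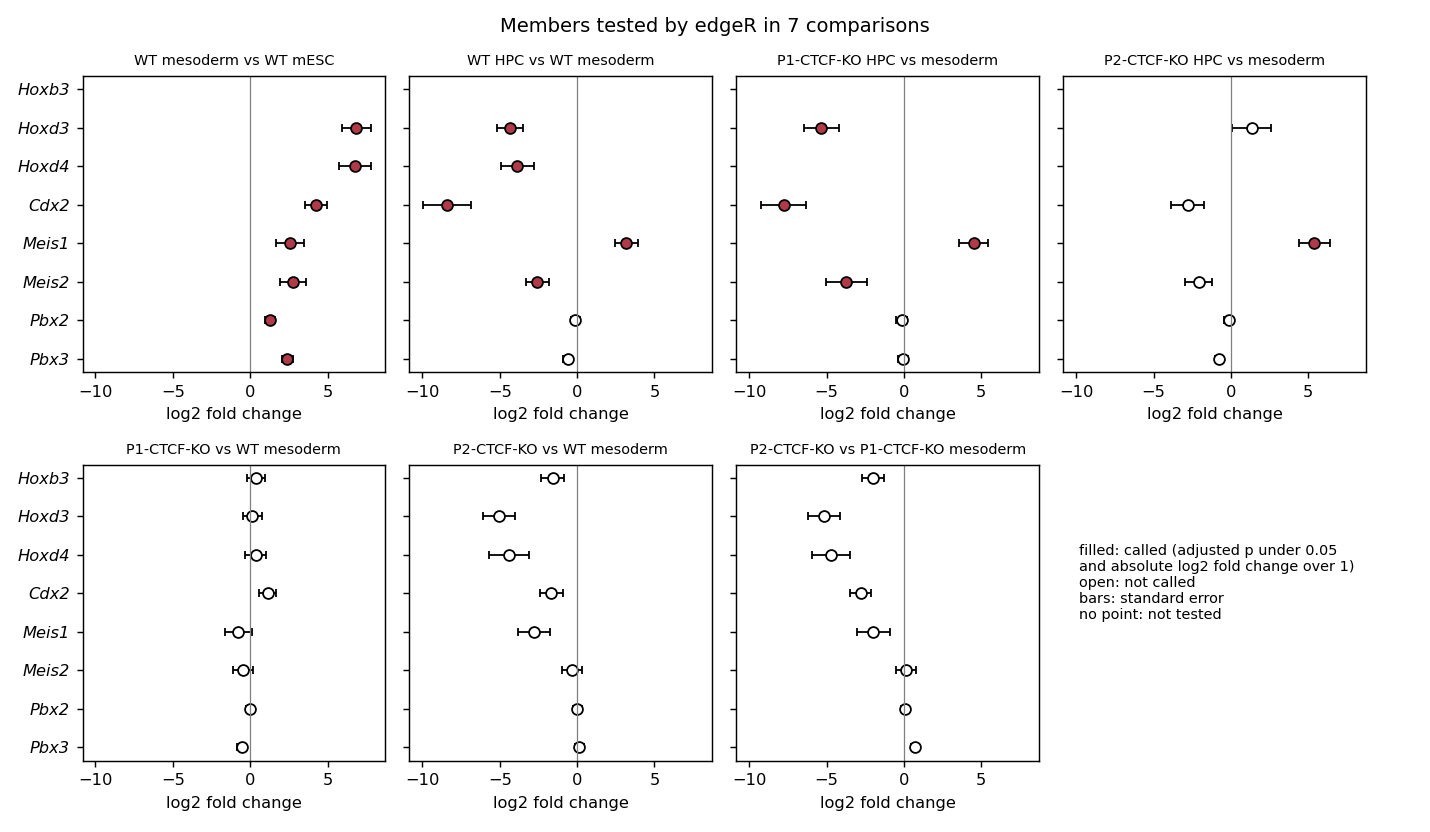
Log2 fold changes (x axis) with standard errors for members tested by edgeR in 7 comparisons, filled where called and open where not, with no point where a member was not tested. Filled points stand on the right for 7 members in WT mesoderm against mESCs, Meis1 is filled on the right in each of the 3 steps from mesoderm to HPC, and all points are open in the 3 genotype comparisons in mesoderm.

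In HPCs the members left for testing were Meis1, Meis2, Pbx2 and Pbx3, 4 of 46. EdgeR called 0 of them for P2-CTCF-KO against WT, for P1-CTCF-KO against WT and for P2-CTCF-KO against P1-CTCF-KO, and 0% of all genes in each of the 3 comparisons. None of the 4 had an unadjusted p under 0.05 in any of the 3, and DESeq2 called 0 in each. Meis1 had 385, 371 and 613 counts in P1-CTCF-KO HPCs and 863, 236, 314, 85 and 145 in P2-CTCF-KO D10.1, D10.1-2, D2.1, D2.1-2 and E9.1. The levels were 65.7 ± 21 CPM (SD, n = 3) and 30.6 ± 30.2 (SD, n = 5), against 43.3 ± 21.7 (SD, n = 4) in WT, with overlap between all groups.

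P2-CTCF-KO D10.1, at 83.7 CPM, was the highest of its group. Meis1 differed between P2-CTCF-KO and P1-CTCF-KO HPCs by -1.12 (adjusted p = 0.527), and by -1.93 with a call without D10.1. No Hox member was higher or lower without overlap in the HPCs of either deletion against WT, and the highest Hox count in any HPC library was 4, for Hoxd3 in P2-CTCF-KO D10.1 and Hoxb3 in P2-CTCF-KO D2.1. These 2 libraries and WT B9.3 also had the highest summed markers of nascent and Flk1+ mesoderm among HPCs. The sums were 10.6, 20.3 and 13.1 CPM against 2.76 to 8.11 in the others. Most of each sum was Kdr, at 10.2, 18.1 and 11.2 CPM, and T, Mesp1, Eomes, Etv2 and Mixl1 were at 0 in WT HPCs. P2-CTCF-KO D2.1 had 16 counts of Eomes, 6 of Mixl1 and 1 each of T and Etv2, and D10.1 had 1 of Eomes. The part of these sums in the Hox counts was not tested.

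The step from mesoderm to HPC was also read within each deletion. In P1-CTCF-KO cells 6 of 46 members were tested, and Meis1 rose (4.5, SE 0.956, adjusted p = 0.00126), against 16.6% of all genes. Hoxd3 (-5.34, SE 1.14, adjusted p = 0.00137), Cdx2 (adjusted p = 0.000921) and Meis2 (-3.74, SE 1.33, adjusted p = 0.0316) fell, 3 of the 6 tested against 16.1% of all genes tested. Cdx2 went from 47, 23 and 48 counts to 0 in all 3 HPC libraries, at least 5.18-fold lower, and Hoxd3 from 43, 29 and 46 to 0, 1 and 0, a ratio of 45.4 (counting interval 7.99 to 1810). Hoxd3 and Cdx2 passed the filter through mesoderm, where they are high. Meis2 lost its call without mesoderm E7.1 (-3.70) or E9.1 (-3.66) or any of HPC E7.1 (-3.59), E7.2 (-3.24) and E9.1 (-4.60). Without overlap, 22 of the 42 members with counts lay lower in P1-CTCF-KO HPCs, against 22.6% of all genes with counts. These 22 include members under the floor of 3 counts, such as Hoxb4. Meis1 alone lay higher, 1 of 42 against 16.8%.

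In P2-CTCF-KO cells 6 of 46 were tested, and Meis1 rose from 13, 9 and 5 counts to 85 to 863 (5.39, SE 1.02, adjusted p = 0.000482), against 16.5% of all genes. EdgeR called 0 of the 6 lower, against 11.7% of all genes tested, with 3 lower at an unadjusted p under 0.05, and DESeq2 called 2 of the 6 in all. Cdx2 went from 3, 2 and 7 counts to 0, 0, 2, 0 and 0 (-2.79, adjusted p = 0.0522), a ratio of 8.33 with a counting interval of 1.85 to 76.6. Meis2 differed by -2.09 (adjusted p = 0.0665) and Pbx3 by -0.77 (adjusted p = 0.0313), under the limit on the fold change. Hoxd3, already at 0, 0 and 2 counts in this mesoderm, had 4, 1, 2, 1 and 0 in HPCs.

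The number called in this step was 2 without WT mesoderm C6.1 or C8.1, P1-CTCF-KO mesoderm E7.2, P2-CTCF-KO mesoderm D2.1 or E9.1, or WT HPC B9.3. It was 3 without P2-CTCF-KO HPC D2.1, where Cdx2 stood at -4.95 and Meis2 at -2.82. Without overlap between libraries, Cdx2 lay lower in P2-CTCF-KO HPCs, 1 of the 23 members with counts against 11.4% of all genes with counts. Meis1 lay higher, 1 of 23 against 12.4%.

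Whether the step itself differed between a deletion and WT cells was tested as an interaction. For P2-CTCF-KO, edgeR called 0 of 46 members with 6 tested, against 0.0218% of all genes, and DESeq2 called 0. At an unadjusted p under 0.05 there was 1, against 7.01% of all genes tested. That member was Hoxd3, whose step was 5.60 higher on the log2 scale than in WT cells (SE 1.55, unadjusted p = 0.00189, adjusted p = 0.297). The step in P2-CTCF-KO cells was 1.34 in the same fit, where Hoxd3 had at most 4 counts in a P2-CTCF-KO library. Hoxd3 passed the filter through WT and P1-CTCF-KO mesoderm, where it is high, so the difference in steps follows in part from the filter. For P1-CTCF-KO, edgeR called 0 of 46 with 6 tested, 0% of all genes, with 0 at an unadjusted p under 0.05 and 0 by DESeq2. The steps share the WT libraries and are not independent of each other.

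Genes that act with or on the members were read as lists. Among TALE genes outside the members, Pknox2 rose (4.42, SE 1.11, adjusted p = 0.0129) and Tgif1 fell (-1.13, SE 0.3, adjusted p = 0.0172) in WT mesoderm against mESCs. Towards HPCs Tgif1 fell further and Tgif2 fell (-1.27, SE 0.305, adjusted p = 0.00939). The noncoding RNAs of the clusters (20 of 28 in the table) were mostly untested, and of 2 tested Halr1 fell from mESCs (0.508 and 0.51 CPM) to mesoderm, where each library was at 0.

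Of 10 counted genes that border the clusters, 8 were tested in WT mesoderm against mESCs, and 3 rose, against 10.7% of all genes, Evx1 beside HoxA (5.75, SE 0.941, adjusted p = 0.0013), Skap1 beside HoxB (5.57, SE 0.958, adjusted p = 0.00174) and Mtx2 beside HoxD (1.01, SE 0.29, adjusted p = 0.0245). Towards HPCs Evx1 and Skap1 fell (-5.58, SE 1.24, and -3.95, SE 0.884) and Skap2 rose (2.68, SE 0.548). Evx1, unlike the Hox genes beside it, was at 2.79 and 1.32 CPM in WT C6.1 and C8.1 and 0.174 in B9.3, and at 2.53 to 3.78 CPM in P2-CTCF-KO mesoderm.

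Of 23 trithorax and polycomb genes in the table, which keep Hox genes on or off, 20 were tested in WT mesoderm against mESCs, 2 rose and 6 fell, where 10.7% of all genes rose and 13.7% fell. Kdm6b, a demethylase of the polycomb mark, rose from 1.32 and 1.69 CPM to 15.7, 16.6 and 15.6 (3.40, SE 0.242, adjusted p = 1.77e-05), and the polycomb subunits Phc1 (-3.08, SE 0.236, adjusted p = 2.32e-05) and Cbx7 (-3.82, SE 0.354, adjusted p = 9.19e-05) fell. Phc2, the other gene that rose, changed by 2.1 (SE 0.348, adjusted p = 0.00137). From mesoderm to HPCs, where 10.8% of all genes rose and 12.5% fell, 1 of the 20 rose, Jarid2 (1.59, SE 0.32, adjusted p = 0.00333), and 4 fell, among them Kdm6b (-1.55, SE 0.183, adjusted p = 0.000115), Cbx2 (-2.94, SE 0.552, adjusted p = 0.0022) and Cbx7 (-3.30, SE 0.661, adjusted p = 0.00328).

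Of 18 Wnt, Fgf and retinoic acid genes that act upstream of Hox and Cdx genes, 11 were tested in WT mesoderm against mESCs, 6 rose and 2 fell, against the same 10.7% and 13.7% of all genes. Among them the ligand Wnt5a rose (5.91, SE 0.705, adjusted p = 0.000243), as did Cyp26a1, which degrades retinoic acid (5.25, SE 0.93, adjusted p = 0.00209), and the receptor gene Rarg fell (-2.17, SE 0.415, adjusted p = 0.00323). Fgf4 fell from 3.9 and 4.43 CPM to 0 in each WT mesoderm library. From mesoderm to HPCs 9 of the 11 fell, against 12.5% of all genes, and 0 rose, among them the Wnt effector gene Tcf7 (-3.68, SE 0.594, adjusted p = 0.00089) and the receptor gene Rara (-3.09, SE 0.435, adjusted p = 0.000372). No gene named from these lists was called by edgeR between genotypes at either stage.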

How the data were processed

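Poly(A)-minus RNA-seq of 23 libraries was used as deposited, as read counts per gene over exons and introns. By the methods the authors aligned reads to mm9 with STAR and counted them with featureCounts, and the annotation and the strand setting are not given in the sources used here. The authors called the ATAC-seq and CTCF peaks with MACS2, and the peak lists were used for their positions, so their scores were not read. CPM values and tests were computed here from the deposited counts.

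Counts were tested with edgeR 4.0.16 (quasi-likelihood, TMM, filterByExpr with a minimum count of 10) and Benjamini-Hochberg adjustment over all genes tested, in R 4.3.3. A gene was called at an adjusted p under 0.05 and a log2 fold change of over 1 in size. WT comparisons across stages used the 9 WT libraries, genotype comparisons the libraries of 1 stage, and steps within the deletions the 21 libraries of mesoderm and HPCs. SEs were derived from the log2 fold change and the F statistic. DESeq2 1.42.0 and the other alternatives are described in the closing section. The test was checked on simulated counts with 200 changed genes. It called 90 genes for WT HPCs against WT mesoderm (12899 genes), of which 1 was unchanged. For P2-CTCF-KO against WT mesoderm (8778 genes) it called 129, of which 4 were unchanged.

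Libraries of the same clone pair mesoderm with HPCs. The deviations of the 9 clones from their group means correlated between stages at -0.08 to 0.19, and 5 of 9 clones matched themselves best. The main fits have no block. Members and gene lists were chosen with earlier results of these data known. Values of single libraries are given for members called in any comparison and for the member with the highest level per kb in each cluster and gene family, and up to 4 genes are named per further list, smallest adjusted p first. Some genes of the further lists are not reported here. Sequences and annotation come from the mm9 reference.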

Additional observations from a re-analysis of the deposited data

Results flagged for a closer look

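In 11 sets of values from groups of 4 or 5 HPC libraries, 4 values from 3 libraries stood apart from the rest of their group by Dixon's test, which flags about 1 group in 20 by chance. WT HPC B9.3 was the highest of the WT HPC libraries for Meis2, at 2.66 CPM against 0 to 0.395 in the others, and for the sum of Hox genes, at 1.03 CPM. P2-CTCF-KO HPC D10.1 was the highest for Meis1, at 83.7 CPM against 8.98 to 22.7. P2-CTCF-KO HPC D2.1-2 was the lowest for Pbx2, at 0.528 CPM against 1.63 to 2.04.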

How the results depend on the processing

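No result changed direction among called values under the alternatives run, and 247 of the counts under other settings stayed within 1.5 times the main count while 35 did not. Without a filter on low counts, 25 members were called for WT mesoderm against mESCs, 14 for WT HPCs against mesoderm, 4 for P2-CTCF-KO against WT mesoderm, 6 for P2-CTCF-KO against P1-CTCF-KO mesoderm, 9 for the P1-CTCF-KO step to HPCs and 3 for the P2-CTCF-KO step. The shares of all genes called without the filter are not given here, so these counts are not read as a result about the members. Many of the genes added this way had only a few counts, and calls against mESCs also depend on the scaling of library sizes. DESeq2 called 1 member for P2-CTCF-KO against WT mesoderm, 3 for P2-CTCF-KO against P1-CTCF-KO mesoderm and 2 for the P2-CTCF-KO step. With all 23 libraries in 1 fit, 1 was called in each of the first 2 of these. The P2-CTCF-KO step gave 2 calls with no limit on the fold change, with RLE size factors, without ribosomal and multi-locus genes, and with the libraries of a clone summed. The cause was not tested.

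With the clone as a replicate block, 2 members were called for WT HPCs against mesoderm, where fewer members were tested, and the block changed no other count. No paired analysis was possible between genotypes within a stage because each genotype has its own clones. When each library was left out in turn, the count ran from 2 to 7 for WT mesoderm against mESCs, 1 to 5 for WT HPCs against mesoderm, 2 to 3 for WT HPCs against mESCs, 0 to 2 for P2-CTCF-KO against WT mesoderm, 0 to 1 for P2-CTCF-KO against P1-CTCF-KO HPCs, 3 to 5 for the P1-CTCF-KO step and 1 to 3 for the P2-CTCF-KO step. It was 0 throughout for the other comparisons between genotypes and for the differences between steps. Promoters with an HPC ATAC-seq peak numbered 1 within 250 bp and 0 with peaks at or above the median width, and promoters with a CTCF peak of that width numbered 3. Most Hox members lie at or under a few counts in each library, which limits every order between them.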
